A study of Mus musculus with 32 samples.

Results

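The genes described here are 37 chromatin and gene regulators in which mutations have been linked to autism, intellectual disability or related disorders of human development. They were taken as a list of gene names, chosen with earlier results of these data known. All 37 were found among the 23958 genes of the table. After a filter on low counts 36 of them were tested, among 12651 genes in all. The remaining gene, Adnp, is described by its level alone.

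The data come from the infralimbic and prelimbic frontal cortex of 32 mice that had received gut microbes of another species. Human microbes went to 12 mice, squirrel monkey (Saimiri boliviensis) microbes to 8 and macaque (Macaca mulatta) microbes to 12. RNA was read by TagSeq, a method whose reads come from close to the 3′ ends of transcripts, and each mouse held 1035036 to 2089308 counts (median 1534710.5). The labels place human-donor mice in batches A (4 mice) and B (8), squirrel monkey-donor mice in C (4) and D (4), and macaque-donor mice in E (5) and F (7). Every batch therefore holds 1 donor species, so batch and donor cannot be told apart. The sources used here do not give the strain, sex or age of the mice, whether they held microbes of their own before inoculation, or what a batch stands for. All 3 groups were inoculated, and no untreated mice were among the samples used. The labels do not say whether mice of a batch shared a cage or a donor animal, so p-values measure the spread between these mice only.

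Chromatin regulators set which genes a cell can transcribe. Remodellers of the CHD and BAF families move or evict nucleosomes. Methyltransferases, demethylases and acetyltransferases write or erase marks on histone tails, and readers and corepressors bind those marks and recruit further enzymes. In the developing cortex such proteins time the birth of neurons, and in mature neurons they take part in activity-dependent transcription. Many of the human disorders arise from the loss of a single gene copy. Members were grouped into 7 roles, which order the account below.

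Promoters are shown for the members that later passed the test and had an entry, because they let the reader see which sequence lies before the start of each. Each line gives the 250 bases upstream of the start, 5′ to 3′ on the gene's own strand, from RefSeq on build GRCm38.p6, with the motif GGGCGG (an SP1 box, on either strand) in capitals. The counts were made on GRCm39 per the submitters' processing notes, and they carry no coordinates.
Taok1 (chr11:77607816-77608065, minus strand): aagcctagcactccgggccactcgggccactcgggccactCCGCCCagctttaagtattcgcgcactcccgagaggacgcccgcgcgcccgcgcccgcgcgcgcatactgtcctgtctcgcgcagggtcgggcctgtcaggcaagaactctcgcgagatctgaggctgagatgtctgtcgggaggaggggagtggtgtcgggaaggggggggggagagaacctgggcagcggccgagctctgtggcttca
Ankrd11 (chr8:123042285-123042534, minus strand): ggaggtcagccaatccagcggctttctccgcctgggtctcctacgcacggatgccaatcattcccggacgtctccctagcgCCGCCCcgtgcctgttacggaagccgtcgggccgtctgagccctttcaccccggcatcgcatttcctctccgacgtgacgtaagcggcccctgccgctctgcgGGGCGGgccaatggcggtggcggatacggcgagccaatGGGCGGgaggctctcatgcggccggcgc
Cul3 (chr1:80340691-80340940, minus strand): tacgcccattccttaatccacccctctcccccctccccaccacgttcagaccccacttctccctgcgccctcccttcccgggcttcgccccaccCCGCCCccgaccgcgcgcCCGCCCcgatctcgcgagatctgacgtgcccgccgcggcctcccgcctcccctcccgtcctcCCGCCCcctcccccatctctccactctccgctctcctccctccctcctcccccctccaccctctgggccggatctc
An SP1 box, in either orientation, was found in 26 of 33 promoters of 29 members with an entry (78.8%), against 32.7% of all 32851 promoters of that length. Members' promoters had a median GC content of 70.0%, against 52.4% over all promoters. The ratio of observed to expected CpG was 0.85 at the median, against 0.37, and it was above 0.6 in 78.8% of members' promoters and in 34.0% of all. Among promoters above that ratio the SP1 box was present in 92.3% of the members' and 67.5% of all. Other motifs were looked for on both strands. The ETS motif CCGGAAG, the CRE TGACGTCA and the TATA box TATAAA were found in 1, 1 and 2 members' promoters, and the NRF1 core GCATGCGC and the YY1 motif AAGATGGCG in 0. Over all promoters the shares were 6.9%, 1.5%, 12.4%, 2.3% and 0.6% in the same order. The set of all promoters covers 27025 genes, while 12651 genes were tested here, so it includes genes too low to test in this tissue. No comparison with promoters of tested genes alone was made. These matches describe letters in a window, not binding. The CCGCCC runs in capitals in the Taok1, Ankrd11 and Cul3 lines are this motif read from the other strand.

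The main comparison was of mice with human microbes against mice with macaque microbes. Of the 36 regulators tested 4 passed (adjusted p under 0.05, edgeR's quasi-likelihood test with Benjamini-Hochberg adjustment over all 12651 genes), and all 4 fell: Taok1, Ash1l, Ankrd11 and Cul3. This is 11.1% of the members, against 8.01% of all genes called in either direction and 3.54% called lower. The share is not even over the roles: Taok1 and Cul3 are 2 of only 4 kinases and ubiquitin ligases in the list. Over all genes 448 were called lower and 565 higher. The remaining 32 did not pass, and 8 of 36 (22.2%) had an unadjusted p under 0.05, beside 23.1% of all genes. Of the 36 fold changes 30 lay below 0 and 6 above, with a median of -0.08 on the log2 scale, against -0.001 and 50.2% below 0 over all genes tested. The shifts were small: the 95% interval of 35 of 36 members lay within 0.5 log2 units of 0.

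**Figure D1:**
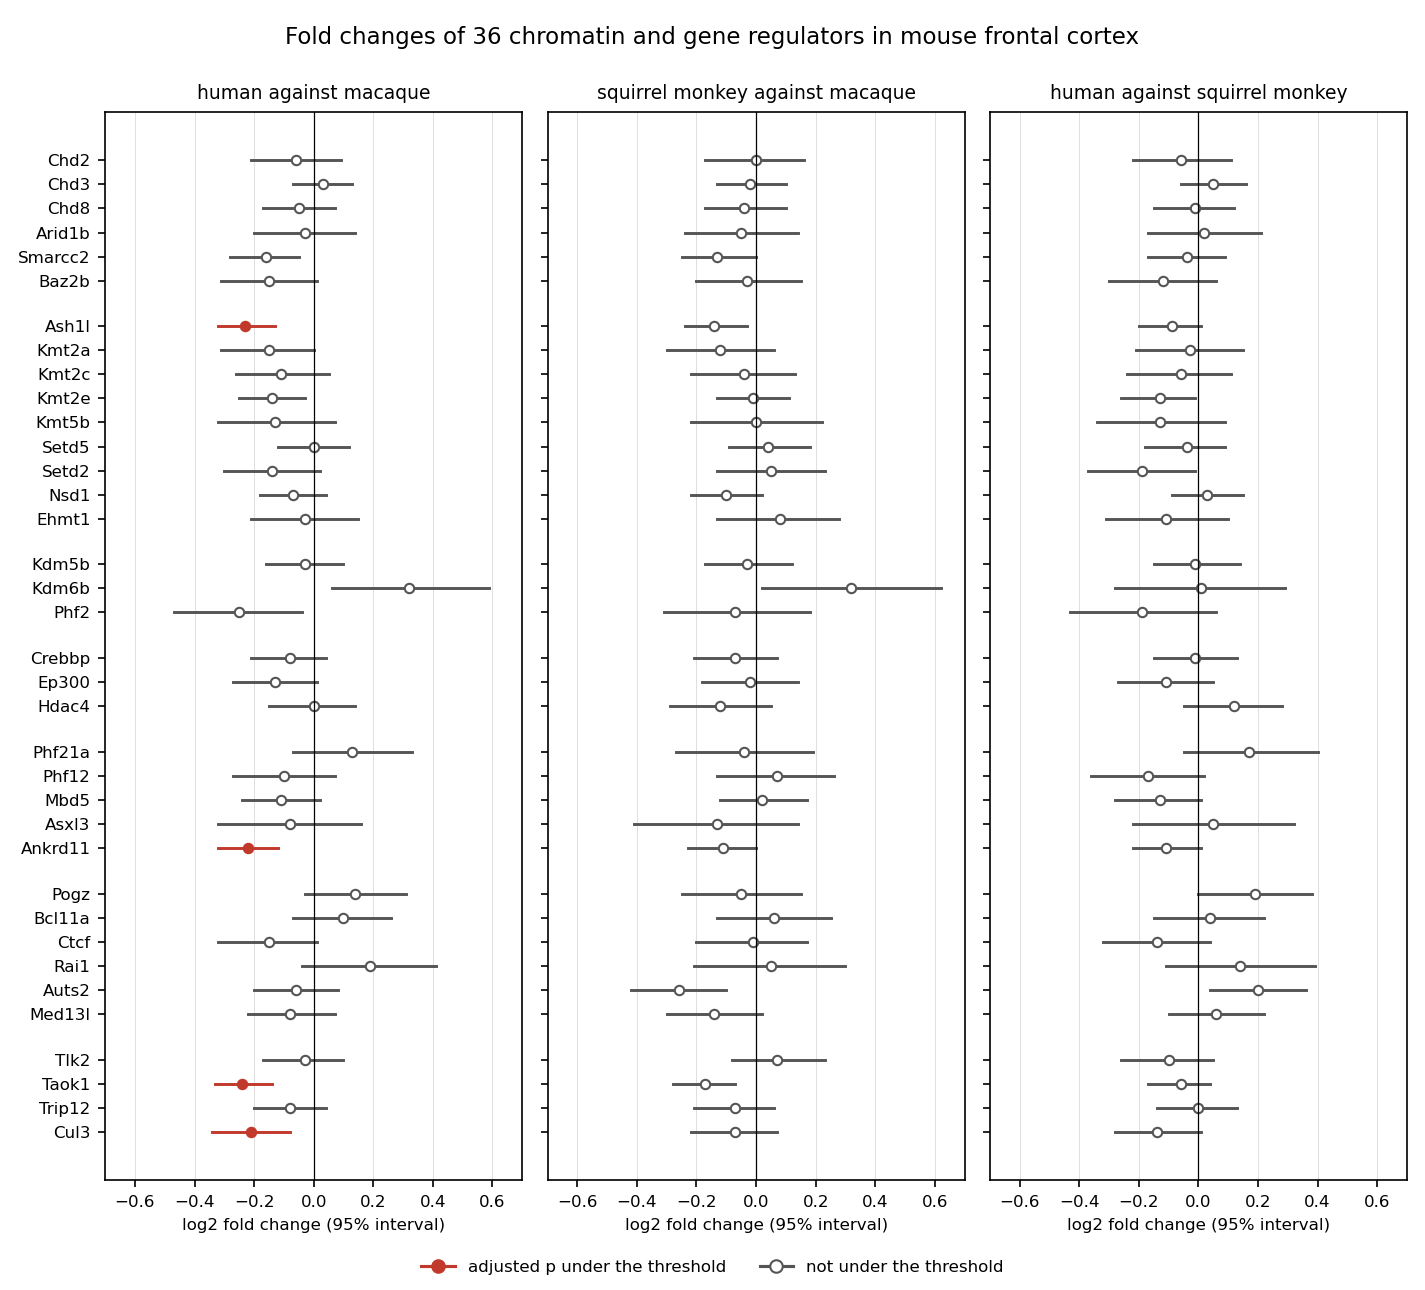
Log2 fold changes (x axis) of the 36 regulators tested, by role from remodellers at the top to kinases and ligases at the bottom, with 95% intervals from edgeR's quasi-likelihood fit. Filled red points mark the 4 members past the threshold in human against macaque; no member is filled in the other comparisons.

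Taok1 encodes a protein kinase that acts on microtubules and on stress-activated kinase pathways. Its level is given as scaled counts (CPM, a gene's counts relative to the TMM-scaled library total), which are not divided by transcript length, so levels are not compared between genes. In mice with human microbes it ran from 288 to 345 CPM (median 311), in mice with squirrel monkey microbes from 303 to 363 (median 322), and in mice with macaque microbes from 314 to 420 (median 369). All 12 human-donor mice lay below the macaque mean and 7 lay below the lowest macaque-donor mouse, although the ranges overlapped. Both human batch means (302 ± 11.4 in A, 321 ± 21.2 in B, SD) lay below both macaque ones (366 ± 23.2 in E, 374 ± 34.0 in F). That order of batch means held in 14 of the 36 members tested, and the reverse in 5. The share over all genes tested is not given here, so this count is not read as a result about the members. In human against macaque Taok1 fell by 0.24 on the log2 scale (SE 0.05, 95% interval -0.33 to -0.14), which is 15.2%, with an adjusted p of 9.19e-04. In bulk tissue fewer cells that use a gene and less of its RNA per cell cannot be told apart, which holds for every difference given here.

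Cul3 is the scaffold of a ubiquitin ligase that marks proteins for degradation, and the only member of the 4 called whose exons overlap no other gene in the annotation. It ran from 102 to 137 CPM (median 112) with human, 112 to 135 (median 126) with squirrel monkey and 101 to 155 (median 132) with macaque microbes. The lowest of all 32 mice was a macaque-donor mouse, so the ranges overlapped fully at the low end, while 5 macaque-donor mice lay above every human-donor mouse. Human batch means were 106 CPM in A and 117 in B, against 132 in E and 130 in F for macaque, with SDs from 4.08 in A to 19.3 in F. Cul3 fell by 0.21 (SE 0.06, 95% interval -0.34 to -0.08, 13.6%), with an adjusted p of 0.0354. It was the least firm of the 4: leaving out 1 mouse at a time lost the call in 10 of 32 cases (adjusted p 0.0116 to 0.0758), and leaving out batch A, E or F lost it too. The other members of this role, the chromatin assembly kinase Tlk2 and the ubiquitin ligase Trip12, did not pass (-0.03 and -0.08, adjusted p 0.828 and 0.467).

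Among the 9 histone methyltransferases and relatives, Ash1l was the member that passed. Its product, a relative of the fly trithorax group, methylates histones at genes that stay active. It ran from 221 to 286 CPM (median 247) with human, 247 to 282 (median 266) with squirrel monkey and 255 to 334 (median 290) with macaque microbes. Human-donor mice sat at the low end, with 7 of 12 below every macaque-donor mouse and 8 macaque-donor mice above every human-donor one, and the ranges overlapped between 255 and 286 CPM. Ash1l fell by 0.23 on the log2 scale (SE 0.05, 95% interval -0.32 to -0.13, 14.6%), with an adjusted p of 0.00126. All 9 fold changes of this role were below 0, from -0.23 to -0.00 with a median of -0.13.

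Of the other 8, Kmt2e had the smallest p. Its product carries a SET domain and binds chromatin through a PHD finger. It ran from 183 to 237 CPM (median 208) with human and from 189 to 276 (median 233) with macaque microbes. The groups overlapped, and the fold change was -0.14 (SE 0.05, adjusted p 0.0986). Kmt2a and Kmt2c, core enzymes of COMPASS-like complexes, gave -0.15 and -0.11, and Setd2, which methylates histones behind elongating polymerase, gave -0.14 (adjusted p 0.233, 0.424 and 0.302). Kmt5b, Nsd1 and Ehmt1 gave -0.13, -0.07 and -0.03, and Setd5 gave -0.00, with adjusted p of 0.452, 0.465, 0.891 and 0.984.

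Ankrd11, an ankyrin-repeat protein that recruits deacetylases, was the called member among the 5 readers and corepressors. It ran from 288 to 364 CPM (median 328) with human, 306 to 414 (median 361) with squirrel monkey and 349 to 421 (median 375) with macaque microbes. Of the human-donor mice 10 lay below every macaque-donor mouse, the fullest separation of the 4 called members, and the 2 others overlapped with the lowest macaque-donor mice. Ankrd11 fell by 0.22 (SE 0.05, 95% interval -0.32 to -0.12), with an adjusted p of 0.00463. In squirrel monkey-donor mice the batch means were 329 ± 39.6 CPM in C and 377 ± 25.3 in D, with overlapping values and a difference of 0.20 log2 units with an unadjusted p of 0.0202 and an adjusted p of 0.603. The methyl-CpG-binding-domain protein Mbd5, the corepressors Phf12 and Phf21a, and the polycomb-associated Asxl3 did not pass, at -0.11, -0.10, 0.13 and -0.08.

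**Figure D2:**
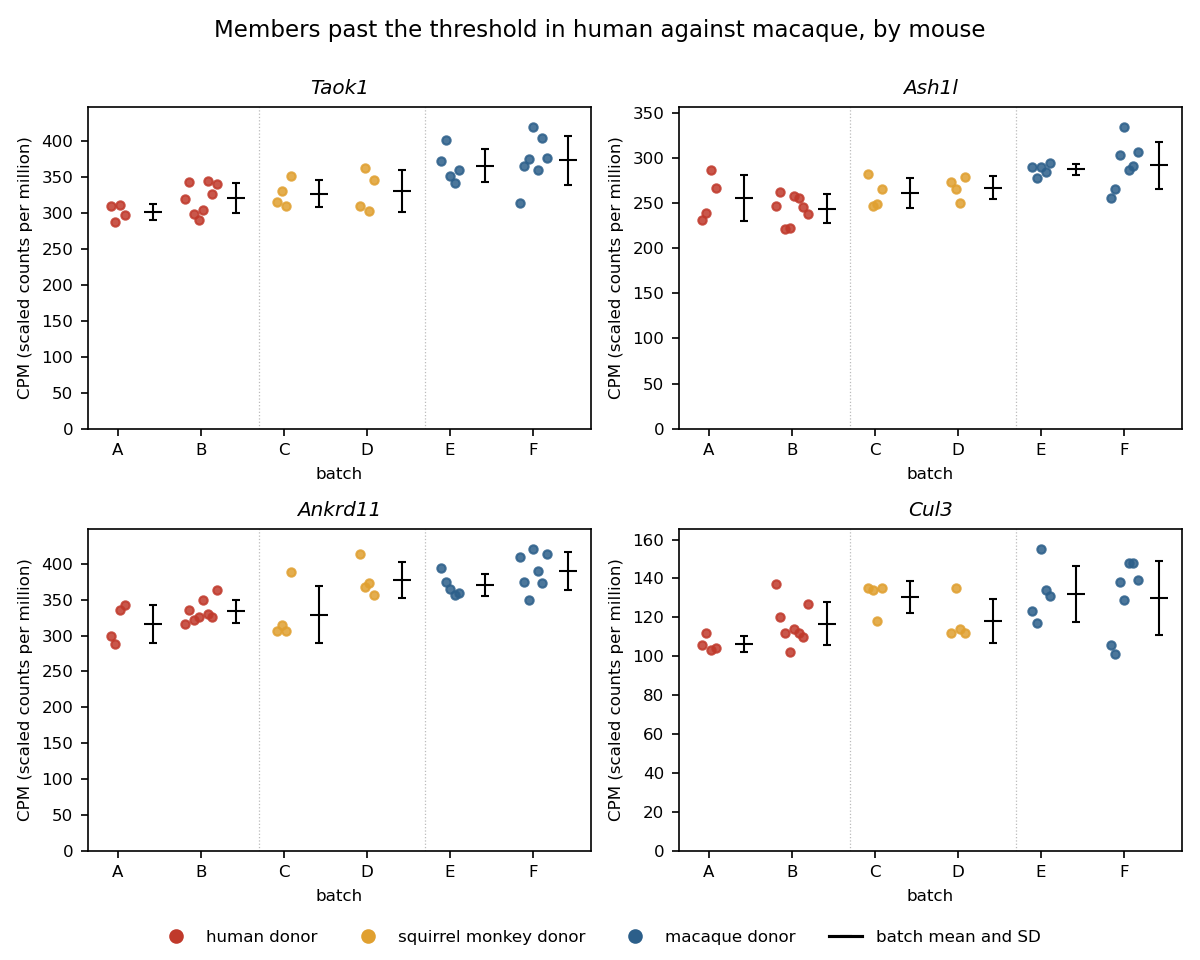
Scaled counts (CPM, y axis) of Taok1, Ash1l, Ankrd11 and Cul3 in each of the 32 mice by batch (x axis). Points are mice coloured by donor, with bars showing each batch's mean and SD. In all 4 genes both human batch means (A, B) lie below both macaque ones (E, F). The same order held in 14 of the 36 members tested and the reverse in 5, and the 4 shown were picked by this comparison. The share of all genes with this order is not given here.

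Among 6 nucleosome remodellers 0 passed with edgeR and 1 had an unadjusted p under 0.05. This was Smarcc2, a core subunit of the BAF complex, which ran from 236 to 317 CPM (median 271) with human and from 258 to 374 (median 301) with macaque microbes. The groups overlapped over most of their range, and the fold change was -0.16 (SE 0.06, adjusted p 0.0649), and DESeq2 did call it. The helicases Chd2, Chd3 and Chd8 gave -0.06, 0.03 and -0.05, the BAF subunit Arid1b -0.03 and the bromodomain protein Baz2b -0.15, with adjusted p from 0.260 to 0.857 over these 5.

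Of the 3 histone demethylases 0 passed with edgeR, DESeq2 or limma voom, while 2 of them, Kdm6b and Phf2, had an unadjusted p under 0.05 with edgeR. Kdm6b, which removes methyl groups laid down by polycomb, ran from 12.2 to 32.9 CPM (median 19.7) with human, 16.2 to 25.5 (median 21.6) with squirrel monkey and 11.7 to 20.4 (median 17.1) with macaque microbes, on 15 to 65 counts per mouse. Both groups overlapped with macaque, and the fold change of human against macaque was 0.32 (SE 0.13, 95% interval 0.06 to 0.59, adjusted p 0.118). Phf2 ran from 19.8 to 30.2 CPM (median 24.6) with human and from 18.7 to 51.4 (median 28.4) with macaque microbes. Here too the groups overlapped, and the fold change was -0.25 (SE 0.11, adjusted p 0.143). Macaque-donor mouse 10, in batch F, held the value of 51.4 CPM, and the next was 32.7; without that mouse the fold change was -0.16 (adjusted p 0.323). Kdm5b gave -0.03 (adjusted p 0.821).

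Of the histone acetylation enzymes, the paralogous acetyltransferases Crebbp and Ep300 gave -0.08 and -0.13 and the deacetylase Hdac4 gave -0.00, and 0 passed with edgeR, DESeq2 or limma voom, nor did any have an unadjusted edgeR p under 0.05. Ep300 had the smallest p of the 3. It ran from 56.8 to 79.2 CPM (median 62.9) with human and from 62.3 to 84.7 (median 70.2) with macaque microbes, and its adjusted p was 0.259.

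Among DNA-binding and transcription factors 0 of 6 tested members passed with edgeR, DESeq2 or limma voom, 0 had an unadjusted edgeR p under 0.05, and the fold changes pointed both ways. Pogz, Bcl11a and Rai1 gave 0.14, 0.10 and 0.19, while Ctcf, Auts2 and Med13l gave -0.15, -0.06 and -0.08. Ctcf, the protein that anchors chromatin loops, had the smallest p (adjusted p 0.253), and ran from 67.4 to 102 CPM (median 79.7) with human and from 71.2 to 118 (median 89.9) with macaque microbes. Adnp, a homeodomain and zinc-finger protein, was at 0 in 13 of 32 mice and reached at most 4 counts, so it was not tested. Its exons overlap those of the gene model Gm20716 on the same strand in GENCODE release M21, and at least 100 of the last 300 bases of its transcript have a copy there, so the level of Adnp is uncertain. The tested members Kmt2e, Phf12 and Rai1 have a copy of this kind in Srpk2, Dhrs13os and Srebf1, whose exons overlap theirs on the opposite strand. Their values are in doubt if counting ignored the strand, which the sources used here do not state.

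In squirrel monkey against macaque, which uses the same 12 macaque-donor mice, 0 of 36 members passed with edgeR, and 0.640% of all genes did. With an unadjusted p under 0.05 there were 4 members (11.1%, beside 13.2% of all genes), and the fold changes had a median of -0.04, against 0.001 over all genes. Taok1 gave -0.17 (SE 0.05, adjusted p 0.109), Ash1l -0.14 (adjusted p 0.237), Ankrd11 -0.11 (adjusted p 0.394) and Cul3 -0.07 (adjusted p 0.723). DESeq2 called 1 member, Taok1 (adjusted p 0.0472), and limma voom with sample weights called 1, Auts2 (adjusted p 0.0398). Auts2, which encodes a neuronal protein of a polycomb complex, ran from 125 to 172 CPM (median 149) with squirrel monkey microbes and from 139 to 194 (median 178) with macaque microbes. Of the squirrel monkey-donor mice 3 lay below every macaque-donor mouse, and the edgeR fold change was -0.26 (SE 0.08, adjusted p 0.110). Kdm6b gave 0.32 (SE 0.15, adjusted p 0.345), beside 0.32 in human against macaque, which uses the same macaque-donor mice.

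In human against squirrel monkey 0 of 36 members passed, against 0.134% of all genes, and 3 had an unadjusted p under 0.05 with edgeR (beside 1267 of 12651 genes). DESeq2 and limma voom called 0 as well. The smallest p was that of Auts2, at 122 to 197 CPM (median 172) with human microbes, with a fold change of 0.20 (SE 0.08, adjusted p 0.339). The members' median was -0.04, against 0.009 over all genes. The 95% intervals of all 36 members lay within 0.5 log2 units of 0, so each interval leaves out larger differences between these groups. Taok1 gave -0.06 (95% interval -0.17 to 0.04), Ash1l -0.09 (-0.20 to 0.01), Ankrd11 -0.11 (-0.22 to 0.01) and Cul3 -0.14 (-0.28 to 0.01). A test of whether any of the 3 groups differed called 3 of 36 members, Taok1, Ash1l and Ankrd11 (adjusted p 0.00277, 0.00498 and 0.0168), which is 8.33%, against 6.15% of all genes. DESeq2 called the same 3, and limma voom called 4, with Auts2 added.

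Batches of the same donor species were compared to show the spread within a species. These comparisons hold fewer mice (8 against 4, 4 against 4 and 7 against 5) than the main one (12 against 12). A count of 0 called is therefore not read as little spread between batches. In B against A 0 of 36 members passed with edgeR and 6 had an unadjusted p under 0.05 (16.7%, beside 11.6% of all genes), and 0.0237% of all genes passed. Kmt5b showed the largest difference, -0.47 log2 units (SE 0.12, adjusted p 0.219), greater in size than any member's difference between donor groups. In D against C 0 passed and 3 had an unadjusted p under 0.05 (8.3%, beside 7.0% of all genes), and 0% of all genes passed. In F against E 0 passed and 0 had an unadjusted p under 0.05 (beside 3.2% of all genes), and 0% of all genes passed. DESeq2 and limma voom called 0 members in each. As a mean over the 36 members, the deviation from each gene's average in log2 CPM was 0.01 in A, -0.05 in B, -0.03 in C, 0.03 in D, 0.02 in E and 0.04 in F. Mice ranged from -0.15 to 0.07 with human, -0.09 to 0.10 with squirrel monkey and -0.08 to 0.15 with macaque microbes, so the groups overlapped widely.

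**Figure D3:**
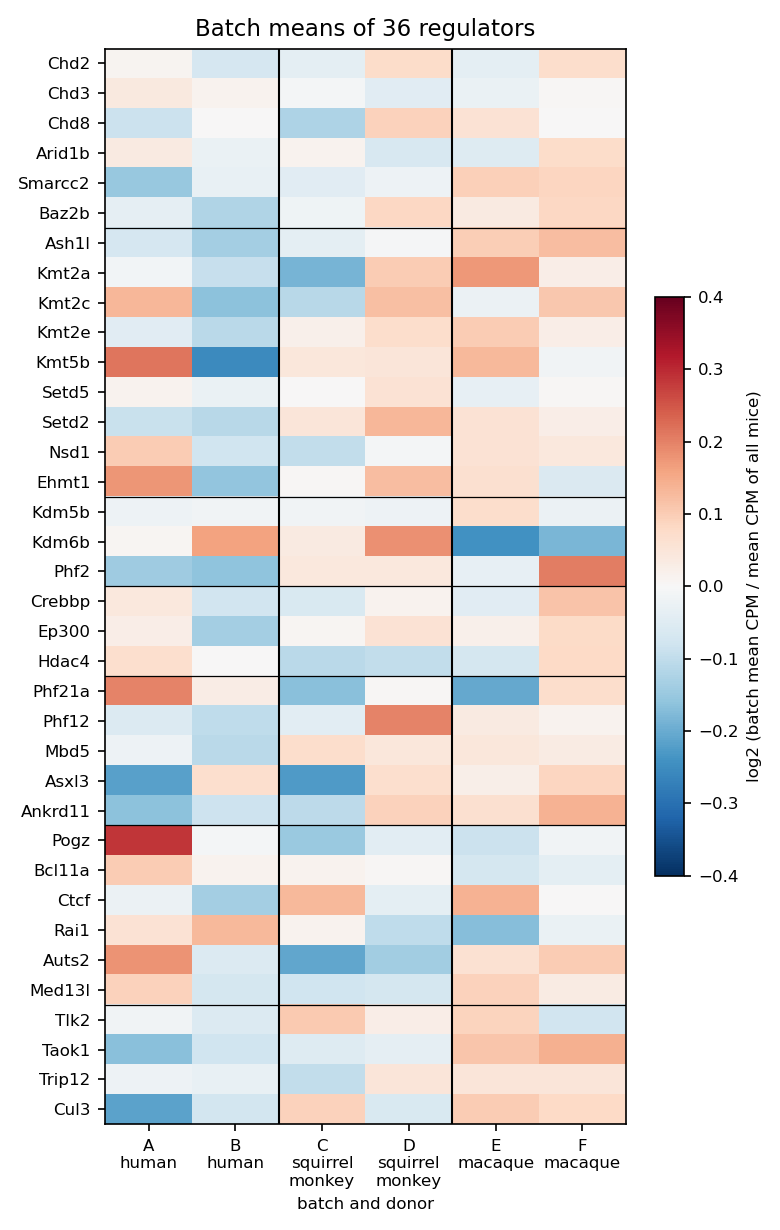
Batch means of the 36 regulators (rows, by role) as log2 ratios to the mean of all mice, with batches A to F in columns and donors below. Red is above and blue below the mean of all mice; ratios run from -0.25 (Kmt5b in B) to 0.29 (Pogz in A).

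The biological coefficient of variation, the spread beyond counting error, had a median of 0.0952 over members (0.0587 for Mbd5 to 0.148 for Kdm6b), against 0.122 over all genes tested and 0.108 over genes at least as high as the lowest tested member. It was above the median of all genes in 5 members and below it in 31, and members had a median level of 98.2 CPM against 33.6 over all genes. Their transcripts were long, with a median of 7997.5 bases against 3408, and 32 of 36 fell in the top 25% of all genes tested by length. In those genes the median log2 fold change of human against macaque was -0.035 and 6.61% of genes were called lower, against 0.023 and 1.93% in the shortest 25%. After a trend on length and GC content was removed, the members' median was -0.06 and 30 of 36 lay below 0, against a median of -0.028 over all genes with a length. The part of transcript length in the members' shift was not tested further.

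Other genes moved between the groups as well. Of 40 ribosomal protein genes 22 rose and 0 fell in human against macaque (median 0.26), beside 565 of all 12651 genes called higher. In squirrel monkey against macaque, where 0 members passed with edgeR, 16 rose and 0 fell (median 0.21), beside 49 of all genes called higher. The mean deviation of the 40 genes ran from -0.18 to 0.38 in squirrel monkey-donor mice. It ran from 0.06 to 0.28 in human-donor mice and from -0.34 to -0.12 in macaque-donor mice. Human and macaque did not overlap. With that deviation as a covariate 0 of 36 members and 0 of all genes were called, the members' median became 0.03, and Taok1, Ash1l, Ankrd11 and Cul3 gave -0.15, -0.16, 0.06 and -0.31 (adjusted p 0.64, 0.606, 0.868 and 0.449). Because the covariate divides these groups, its part and the donor's cannot be told apart.

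**Figure D4:**
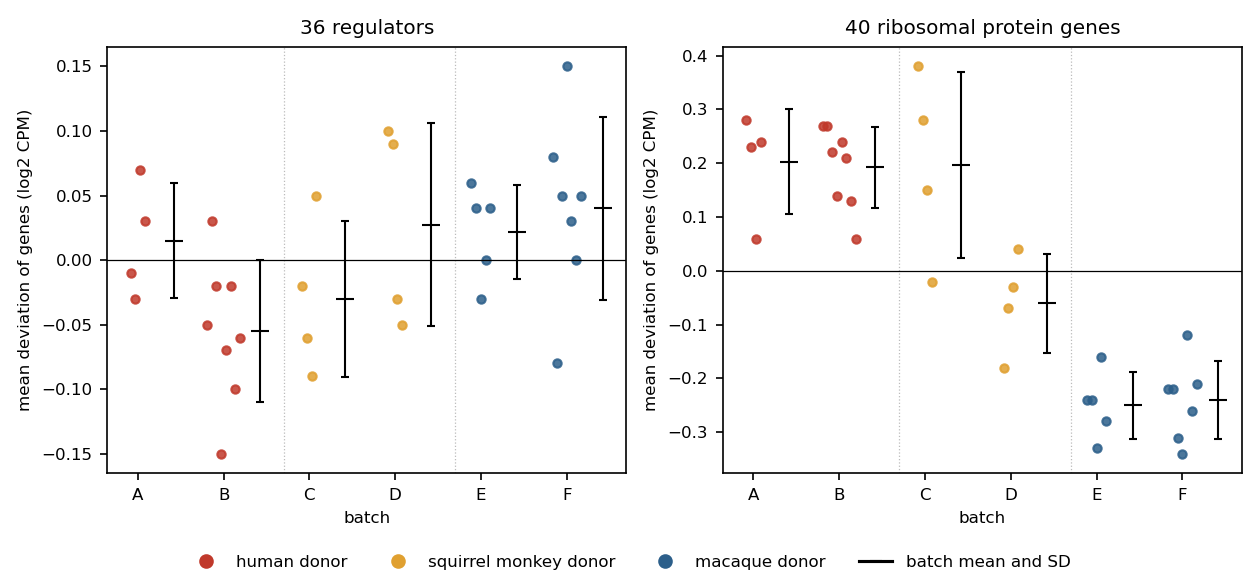
Mean deviation in log2 CPM (y axis) of the 36 regulators (left) and of 40 ribosomal protein genes (right) in each mouse, by batch (x axis), with bars for batch mean and SD. The regulators overlap between donors, while ribosomal protein genes run from 0.06 to 0.28 in human-donor mice and from -0.34 to -0.12 in macaque-donor mice.

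Of the markers of cell types that the tissue could hold, 1 deep-layer symbol was not matched. Of those matched, 0 genes were at 0 in every mouse. Some oligodendrocyte, meningeal and blood markers did not pass the filter on low counts. The summed level of 16 oligodendrocyte markers ran from 882 to 11608 CPM (median 1528) with human, 1026 to 5998 (median 2213) with squirrel monkey and 778 to 4070 (median 1157) with macaque microbes, and 5 of 15 tested rose in human against macaque. With their score as a covariate 3 members were called, Taok1, Ash1l and Ankrd11. Upper-layer markers summed to 673 to 1518 CPM (median 1140) with human and 1108 to 1668 (median 1394) with macaque microbes, and of 10 markers 1 rose and 0 fell, with fold changes from -0.49 to 0.58. With their score as a covariate, chosen after seeing the data, 5 were called. Excitatory neuron markers summed to 3052 to 4957 and 3629 to 4762 CPM in these groups, and of 7 markers 1 rose and 1 fell. Inhibitory neuron markers summed to 1924 to 2749 CPM with human and 2150 to 3048 with macaque microbes. Of these 10 markers 2 rose and 1 fell. The shares of all genes called in these covariate fits are not given here, so the counts are not read as a result about the members. The part of these markers in the members' differences was not tested beyond this.

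The unit of replication and the batches changed the calls. Counts summed per batch leave 2 sums per human and macaque group. In that fit 0 of 36 members were called, beside 506 of all 12651 genes. Fold changes stayed at -0.25, -0.22, -0.22 and -0.23 for Taok1, Ash1l, Ankrd11 and Cul3 (adjusted p 0.0583, 0.0848, 0.126 and 0.143). Taok1 was called without each of the 6 batches in turn (adjusted p 0.00129 to 0.0408) and without each mouse. Ash1l was lost without batch B (adjusted p up to 0.0875) and Ankrd11 without batch F (up to 0.169), and both were called without each mouse. Exons of Taok1, Ash1l and Ankrd11 overlap Abhd15, Dap3 and Gm45894 on the opposite strand, and 20 of 37 members have such an overlap. Whether counting used the strand is not stated in those sources, so these values are uncertain to that extent.

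A wider set of 119 relatives of the members came from the same families and complexes. It held 21 called genes among 116 tested in human against macaque (18.1%, beside 8.01% over all genes), 13 lower and 8 higher. The set was chosen with earlier results of these data known, so its share is not read as a result about these families. Tlk1, the paralog of Tlk2, fell by 0.45 (SE 0.07, adjusted p 5.81e-05), and Taok3, a paralog of Taok1, fell by 0.24 (SE 0.06, adjusted p 0.00600). The remaining TAO kinase, Taok2, named after its values were seen, rose by 0.22 (SE 0.07, adjusted p 0.0499). Among neuronal and remodelling genes the activity-dependent transcription factor Mef2c fell by 0.33 (SE 0.07, adjusted p 0.00221) and the neuronal BAF subunit Smarcd3 by 0.86 (SE 0.19, adjusted p 0.00323). Genes that rose included the corepressor Rcor2 by 1.34 (SE 0.22, adjusted p 7.88e-05), at a mean of 5.99 CPM, the acetyltransferase Kat7 by 0.32 (SE 0.07, adjusted p 0.00146), the demethylase Kdm4a by 0.63 (SE 0.13, adjusted p 0.00187) and the deacetylase Hdac11 by 0.26 (SE 0.06, adjusted p 0.00238).

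The families are given beside all 12651 genes, of which 3.54% were called lower and 565 genes higher in human against macaque. By family, cohesin, Mediator and transcription factor genes held 5 lower and 0 higher of 25. Remodellers held 3 lower and 1 higher of 17, acetylation enzymes 1 lower and 3 higher of 19, methyltransferases 1 and 1 of 19, and demethylases 0 lower and 1 higher of 13. Corepressors and methyl-CpG proteins held 1 lower and 1 higher of 15, and kinases and ligases 2 lower and 1 higher of 8. In squirrel monkey against macaque 0 of the 116 passed with edgeR, beside 0.640% of all genes. With an unadjusted p under 0.05 there were 19 of the 116, beside 13.2% of all genes. In human against squirrel monkey 1 of the 116 passed (0.862%, beside 0.134% of all genes). It was the cohesin subunit Smc1a, which fell by 0.30 (SE 0.06, adjusted p 0.0382). Smc1a was also lower in human against macaque, at -0.23 (adjusted p 0.0112).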

How the data were processed

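The authors deposited 1 table of raw counts per Ensembl gene, whole numbers with totals that differ between mice. The build is GRCm39 per the submitters' processing notes; for the aligner, counter, annotation release, strand and duplicates, the entry is: not given in the sources used here. Of its 35 columns 3 match no sample used here and were not used. Symbols came from a gene name table, and 76 IDs without one held 0.031% of counts.

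Counts were analysed in R 4.3.3 with edgeR 4.0.16: filterByExpr on donor group (minimum count 10, total 15), TMM factors (0.955 to 1.04), quasi-likelihood tests on all 32 mice with donor group as the only term, and a separate fit on the 6 batches. The Benjamini-Hochberg adjustment ran over all 12651 genes (threshold 0.05). The common biological coefficient of variation was 0.138. DESeq2 1.42.0 and limma 3.58.1 were alternatives. Scores are mean deviations of log2 CPM (prior count 2), and 95% intervals come from the fit. Depth gives about 7.67 counts at 5 CPM. Of 160 pairs of mice within a donor group 0 held identical counts. One deep-layer marker symbol was not matched.

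Transcript lengths and overlaps came from GENCODE M21, which is on another build, so no coordinates of counted genes are given. A copy was an alignment of at least 100 bases at 95% identity. Members and lists were chosen with earlier results of these data known. All 37 members are accounted for; values are given in full for members past the threshold and for the member of smallest p in each role, and among relatives for up to 4 of smallest p in each direction.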

Additional observations from a re-analysis of the deposited data

Results flagged for a closer look

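In the 8 mice with squirrel monkey microbes the highest value of Baz2b, a bromodomain protein of nucleosome remodelling complexes, was 98.7 CPM. It stood apart from the others, of which the nearest was 84.5 CPM and the lowest 72.4 CPM. It was the single gene of 36 examined in this group whose highest or lowest mouse lay so far from the next; chance would set apart about 1 gene in 20, and groups of 12 mice were not examined in this way.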

How the results depend on the processing

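In human against macaque 3 to 5 of 36 members were called under other scalings, filters, tests and the other covariates, against 4. The shares of all genes called under these settings are not given here, so the counts show only how the calls depend on processing. The ribosomal protein score as a covariate gave 0 called, a median of 0.03 and a fold change of 0.06 for Ankrd11 (adjusted p 0.868), so that its direction turned; the score does not overlap between these groups, and the cause was not tested. Counts summed per batch, a design with 2 sums per group, gave 0, beside 506 of all 12651 genes. Leaving out batch F gave 2. The test for any donor group gave 0 with the ribosomal protein score and with counts summed per batch, 1 without batch E and 0 without batch F, against 3. In squirrel monkey against macaque DESeq2 and limma voom called 1 member each, against 0. The upper-layer score as a covariate was chosen after seeing the data and gave 5. No paired analysis was possible because the labels give no replicate numbers, and the numbers used here, set in order of listing, only name the mice. Depth limits Kdm6b, Asxl3 and Adnp most, and batch is not separable from donor by any fit.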
